A study of Mus musculus with 12 samples.

Results

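The integrin subunits of matrix adhesion described here are the products of 10 genes, Itga1, Itga4, Itga5, Itga7, Itga8, Itga11, Itgav, Itgb1, Itgb3 and Itgb5. Their members were all probes of an Illumina mouse bead array that the platform annotation assigns to 1 of these symbols, which gave 26 of the 45281 probes. A probe counts as detected where its detection p, the array's own comparison of a signal with its negative controls, was under 0.05 on at least 3 of the 12 arrays. Of the 26 integrin probes 13 were detected, among 21124 detected probes in all, and they covered 8 of the 10 genes. Itga4 (6 probes) and Itgb3 (1 probe) had no detected probe.

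The cells were mouse colon ISEMFs, intestinal subepithelial myofibroblasts, grown in high glucose DMEM with fetal bovine serum, insulin, transferrin and EGF. There were 6 cell lines, of which WT5, WT7 and WT13 are wild type for the cluster of the microRNAs miR-143 and miR-145 and KO4, KO10 and KO15 are null for it. Each line gave 1 array without treatment and 1 array after LPS (lipopolysaccharide) at 1 ug/mL for 24 h, LPS being a component of the outer membrane of Gram-negative bacteria, so that each genotype has 3 untreated and 3 LPS arrays. The design asks which transcripts depend on the microRNA cluster, which respond to LPS, and whether genotype alters that response. The labels do not say whether the lines came from separate animals, and p-values here measure only the spread between these lines, which may be technical.

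Integrins are receptors of an alpha and a beta subunit that span the cell membrane, bind extracellular matrix outside and link through talin and kindlin adaptors to actin inside. The alpha subunit largely sets which matrix is bound: Itga1 and Itga11 encode collagen-binding subunits, Itga7 a laminin-binding one, Itga5, Itga8 and Itgav subunits that recognise the RGD motif of fibronectin, vitronectin and related ligands, and Itga4 a subunit for fibronectin and VCAM1. Itgb1 encodes the partner that Itga1, Itga5, Itga7, Itga8 and Itga11 share, while the products of Itgb3 and Itgb5 pair with that of Itgav, and in fibroblasts and smooth muscle these receptors carry contractile force to the matrix.

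The arrays had median signals of 115 to 136 before normalisation, and 42.5% to 44.7% of all probes were detected on each. The LPS array of WT13 stood apart from its group, with the highest median signal and a mean correlation with its group of 0.986, against 0.989 to 0.994 for the other 11 arrays. All untreated arrays lay on 1 slide and all LPS arrays on another, and the slide cannot be told apart from LPS. On each slide positions A to C held WT and positions D to F held KO, and position cannot be told apart from genotype. Of 10 myofibroblast and smooth muscle markers 10 were detected, among them Acta2, Myh11 and Des. Detected markers numbered 5 of 8 leukocyte, 5 of 8 endothelial and 5 of 9 epithelial genes with probes, among them Csf1r, Cd14 and Cd3e, Cdh5, Kdr and Tek, and Cdh1, Krt8 and Krt18, while Ptprc, Itgam and Itgb2, Pecam1, Tie1 and Vwf, and Epcam and Vil1 were not detected. The knockout itself was not checked from the targeted transcripts.

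The collagen-binding integrins Itga11 and Itga1 had the lowest LPS differences of the set. In WT lines 6 of the 13 integrin probes, from Itga1, Itga5, Itga11 and Itgb1, fell and 0 rose, where 10.7% of all 21124 probes fell, 9.97% rose and 20.7% thus changed. In KO lines 4 probes, from Itga1, Itga11 and Itgb1, fell and 0 rose, where 6.02% of all probes fell, 6.45% rose and 12.5% changed. Treated and untreated arrays did not overlap for 6 of 13 integrin probes in WT and 9 of 13 in KO, beside 37.8% and 35.2% of all probes. The calls are from limma with Benjamini-Hochberg adjusted p under 0.05 over all detected probes. The integrin genes were chosen with earlier results of these data known, so these shares are descriptions. The median change of the 13 probes was -0.49 on the log2 scale in WT and -0.27 in KO, beside -0.05 and -0.03 over all detected probes. WT and KO changes come from different lines, and both compare the same pair of slides. In RNA from whole cultures, fewer cells of a type and less RNA per cell cannot be told apart.

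The promoters of the 4 genes with a probe called lower with LPS in WT are shown to set their sequences side by side. In KO a lower call was made for Itga1, Itga11 and Itgb1 but not for Itga5. Each window runs from 250 bases before to 50 bases after the annotated start in RefSeq on GRCm38.p6, is written 5′ to 3′ along the gene, and has capitals where a searched motif matches. The motifs were the GC box GGGCGG, the AP-1 site TGANTCA, the NF-kB consensus, the Smad element CAGAC and the CArG box, each on both strands, and none of the capitals of different motifs overlap.
Itga11 (chr9:62677605-62677904, plus strand): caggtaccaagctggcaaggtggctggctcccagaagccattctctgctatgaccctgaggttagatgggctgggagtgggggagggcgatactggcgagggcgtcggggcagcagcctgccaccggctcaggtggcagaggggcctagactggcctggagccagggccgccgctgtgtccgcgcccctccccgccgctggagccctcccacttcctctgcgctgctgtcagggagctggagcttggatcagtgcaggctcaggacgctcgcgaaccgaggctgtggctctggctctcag
Itga1 (chr13:115101915-115102214, minus strand): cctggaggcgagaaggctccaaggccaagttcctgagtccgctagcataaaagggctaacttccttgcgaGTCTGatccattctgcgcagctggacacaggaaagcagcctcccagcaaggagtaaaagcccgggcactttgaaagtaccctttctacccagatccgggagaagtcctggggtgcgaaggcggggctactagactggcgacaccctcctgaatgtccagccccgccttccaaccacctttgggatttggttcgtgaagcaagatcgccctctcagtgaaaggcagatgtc
Itga5 (chr15:103366742-103367041, minus strand): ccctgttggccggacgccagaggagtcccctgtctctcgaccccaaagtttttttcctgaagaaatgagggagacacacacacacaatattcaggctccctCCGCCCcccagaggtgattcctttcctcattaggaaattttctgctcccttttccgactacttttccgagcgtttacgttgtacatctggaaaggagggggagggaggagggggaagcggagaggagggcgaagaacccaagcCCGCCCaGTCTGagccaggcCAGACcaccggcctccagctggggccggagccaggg
Itgb1 (chr8:128685404-128685703, plus strand): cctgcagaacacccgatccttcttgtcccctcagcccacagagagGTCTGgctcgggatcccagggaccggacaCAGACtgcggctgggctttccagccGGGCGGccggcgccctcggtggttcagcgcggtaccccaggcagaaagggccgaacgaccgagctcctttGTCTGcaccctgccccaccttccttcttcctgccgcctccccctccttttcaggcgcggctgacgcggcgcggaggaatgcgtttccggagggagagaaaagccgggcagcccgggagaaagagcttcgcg
The Itga11 window held 0 matches to the 5 motifs and a GC content of 68.0%, beside a median of 52.7% over all 32851 windows. Itga1 had 1 Smad element, Itga5 had 2 GC boxes and 2 Smad elements, and Itgb1 had 1 GC box and 3 Smad elements. A GC box occurs in 35.7% and a Smad element in 49.6% of all windows. Of the 10 genes 8 had a window, and none of these 8 held an AP-1 site, the NF-kB string or a CArG box, which 7.8%, 0.4% and 1.6% of all windows hold. A match is a run of letters and not a shown binding site, and a missing match covers these 300 bases and the searched letters alone.

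Itga11 encodes a receptor subunit for fibrillar collagen that is made chiefly by fibroblasts and related stromal cells. Its brighter probe read 10.56, 10.35 and 9.91 log2 units in untreated WT5, WT7 and WT13, and 8.30, 8.44 and 7.92 in the same lines with LPS. In KO4, KO10 and KO15 it read 11.41, 10.67 and 10.49 without LPS and 9.64, 8.45 and 8.55 with LPS. Every line was lower with LPS, with changes of -2.26 to -1.77 log2 units, and treated and untreated arrays did not overlap in either genotype. The fall was -2.05 in WT (SE 0.31, limma adjusted p = 0.000877) and -1.97 in KO (SE 0.31, adjusted p = 0.00163), which is 4.15-fold and 3.93-fold.

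The other detected Itga11 probe gave the same picture at a lower signal. It stood at 8.67, 8.41 and 7.94 in the WT lines (in the order above) and at 6.39, 6.43 and 5.36 with LPS, and at 9.51, 8.77 and 8.44 in KO4, KO10 and KO15 against 7.35, 6.49 and 6.53. Again no treated array reached the lowest untreated one of its genotype. Its change was -2.28 in WT (SE 0.34, limma adjusted p = 0.000825) and -2.11 in KO (SE 0.34, adjusted p = 0.00183). Another Itga11 probe was detected on 2 arrays, WT5 and KO4 without LPS, and was not tested. With the authors' processed values, which look to be without background subtraction, the second probe changed by -1.34 in WT and -1.46 in KO, and both were still called.

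Among all 21124 detected probes the second Itga11 probe had the lowest LPS difference in both genotypes, at rank 1, and the first probe was at rank 3 in WT and rank 2 in KO. In 9 of 15 alternative settings in WT and 12 of 15 in KO an Itga11 probe was the lowest of all. Elsewhere the lower of the Itga11 probes ranked no worse than 3 in WT and 6 in KO, the latter without the untreated KO4 array. Itga11 was called in each of these settings. Those with the line as a block or with only the arrays compared keep the differences of the main fit, so the ranks there could not move. With 1 array left out, an Itga11 probe was the lowest of all in WT only without the untreated WT13 array. In KO this held only without the untreated KO10 array, the untreated KO15 array or the LPS array of KO4.

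**Figure D1:**
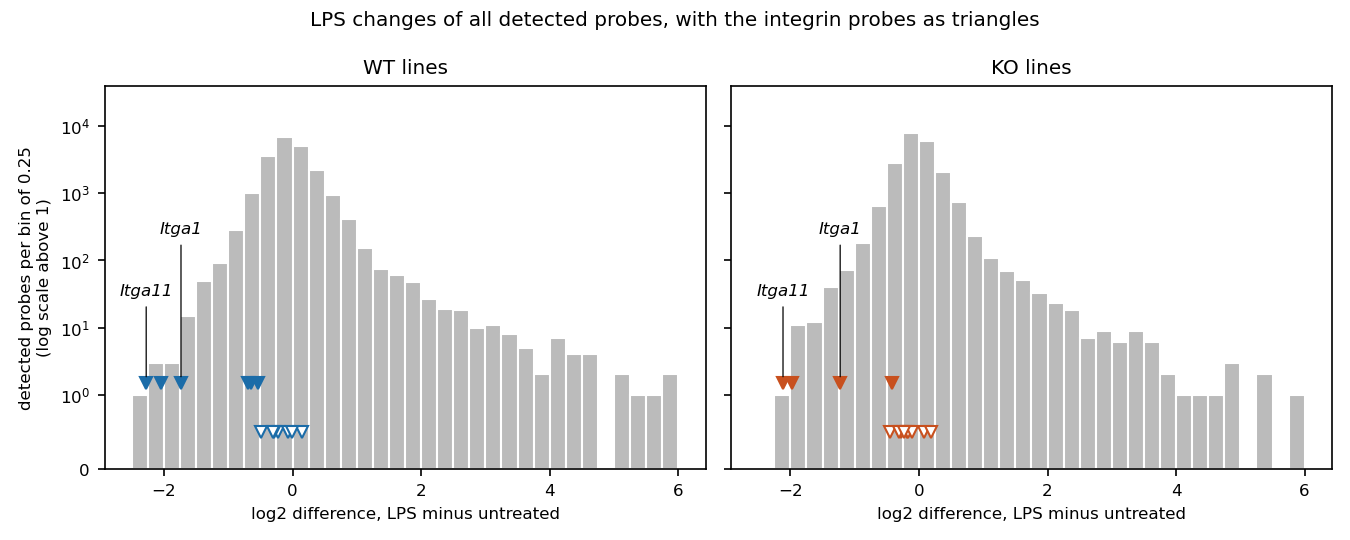
Number of detected probes (y, log scale above 1) by log2 difference between LPS and untreated arrays (x) in WT lines (left) and KO lines (right), with the 13 integrin probes as triangles, filled where the adjusted p is under 0.05. The Itga11 triangles lie at the low end of all 21124 probes in both panels, at -2.28 and -2.05 in WT and -2.11 and -1.97 in KO, and Itga1 lies at -1.74 and -1.23.

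Itga1 encodes the other collagen-binding subunit of the set, known for binding basement membrane collagen in smooth muscle and stromal cells. Its detected probe read 8.05, 7.70 and 7.40 in untreated WT5, WT7 and WT13 and 5.99, 6.26 and 5.69 with LPS. In KO4, KO10 and KO15 it read 7.28, 7.11 and 7.11 and then 5.83, 6.15 and 5.85. All 6 lines were lower with LPS, and treated and untreated arrays did not overlap in either genotype. The change was -1.74 in WT (SE 0.17, limma adjusted p = 5.99e-05), at rank 8 of all probes from the lowest, and -1.23 in KO (SE 0.17, adjusted p = 0.000897), at rank 66. The authors' processed values gave -0.93 and -0.60 for the same comparisons, and both were still called. A second Itga1 probe was detected on 0 arrays.

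**Figure D2:**
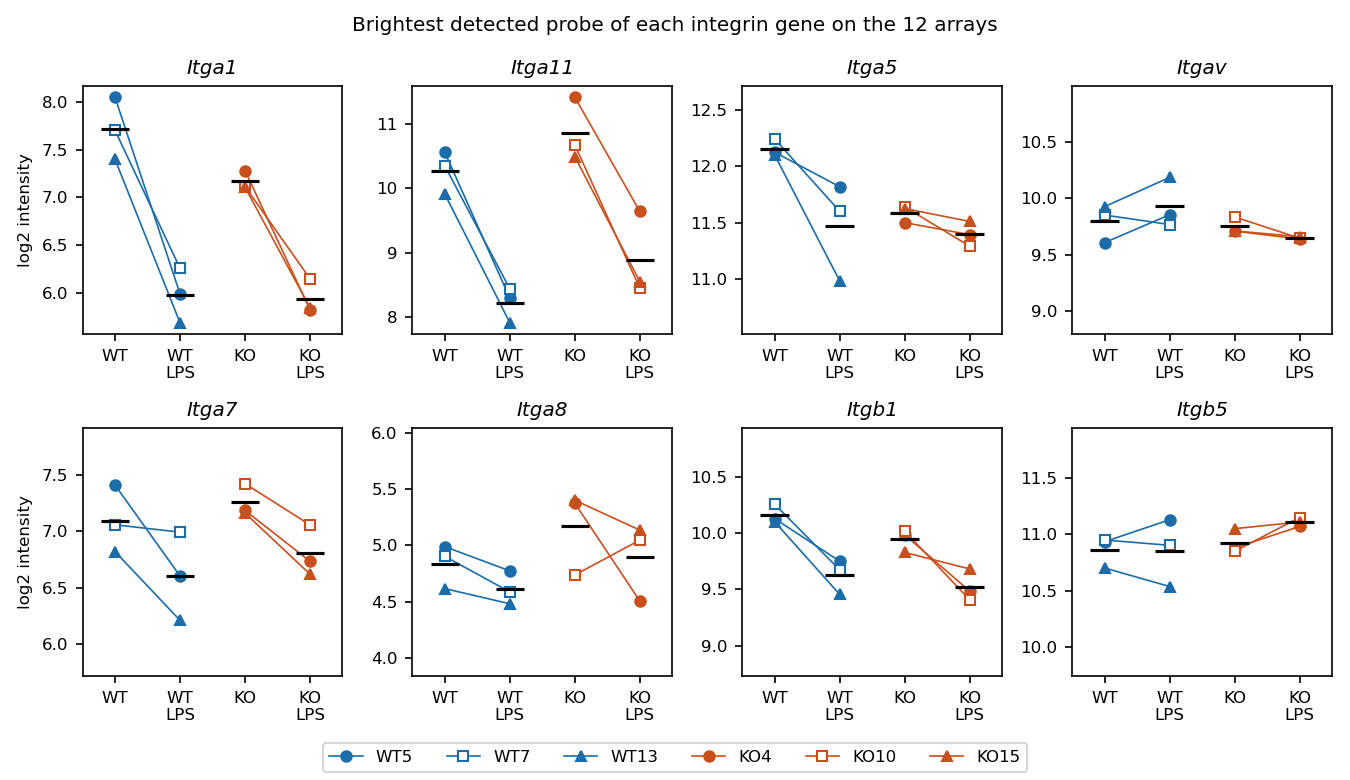
log2 intensity (y) of the brightest detected probe of each of the 8 integrin genes in the 4 groups (x), with lines joining the untreated and LPS array of each cell line and black bars for group means (n = 3). Each panel has its own scale, since levels of different probes are not comparable. Itga11 and Itga1 read lower with LPS in all 6 lines, Itga5 shows WT13 with LPS as its lowest point at 10.98, and KO4 is the highest line for Itga11.

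Itga5 encodes the classical fibronectin receptor subunit. Its brighter probe stood at 12.13, 12.24 and 12.10 in WT5, WT7 and WT13 without LPS and at 11.82, 11.60 and 10.98 with LPS, and in KO4, KO10 and KO15 at 11.50, 11.64 and 11.63 against 11.39, 11.29 and 11.51. The untreated WT arrays were the 3 highest of the 12 arrays, and the LPS array of WT13 was the lowest. The fall in WT was -0.69 (SE 0.17, limma adjusted p = 0.0133), and the change in KO was -0.19 (SE 0.17, 95% interval -0.56 to 0.18, adjusted p = 0.518). The second Itga5 probe changed by -0.64 in WT (SE 0.21, adjusted p = 0.0496) and -0.17 in KO (SE 0.21, adjusted p = 0.662). Without the LPS array of WT13 the WT changes were -0.45 (adjusted p = 0.0201) for the first probe and -0.33 (adjusted p = 0.126) for the second, which was then no longer called.

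Itgav encodes the subunit that binds vitronectin and latent TGF-beta, and its 3 detected probes did not pass in either genotype. The brightest read 9.61, 9.85 and 9.93 in untreated WT5, WT7 and WT13 and 9.85, 9.77 and 10.18 with LPS, with 9.64 to 9.83 over the KO arrays. Its WT change was 0.14 (SE 0.12, 95% interval -0.12 to 0.41), and that in KO was -0.10 (95% interval -0.37 to 0.16). The other Itgav probes, listed under cDNA clone accessions and not under the RefSeq transcript, gave -0.28 and -0.06 in WT and -0.31 and 0.08 in KO, so that the probes of this gene differ in sign. A further pair of Itgav probes was detected on 0 arrays.

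Itga8, which encodes an RGD-binding subunit of smooth muscle and mesenchymal cells, lay at the edge of detection. Its probe was detected on 5 of 12 arrays, which were 1 untreated WT array, 2 untreated KO arrays and 2 KO arrays with LPS, but none of the WT arrays with LPS. The readings ran from 4.48 to 5.40, and the lowest signal detected on these arrays was 4.83 to 4.93. The Itga8 changes of -0.22 in WT and -0.27 in KO (limma adjusted p = 0.455 and 0.416) are therefore only measured values near background. Of the 6 Itga4 probes 5 were detected on no array, and the sixth on 2 untreated arrays.

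Itga7, a laminin-binding subunit gene of muscle, was lower with LPS in 6 of 6 lines without passing the test. For WT5, WT7 and WT13 it read 7.41, 7.06 and 6.82 without and 6.60, 6.99 and 6.21 with LPS, and in KO4, KO10 and KO15 it read 7.18, 7.42 and 7.16 and then 6.73, 7.06 and 6.62. The KO groups did not overlap and the WT groups did. The change was -0.49 in WT (SE 0.20, limma adjusted p = 0.0946) and -0.45 in KO (SE 0.20, adjusted p = 0.161). With the line as a fixed replicate block, which pairs the arrays of a line, the WT change was called (adjusted p = 0.0313) and the KO change was not (adjusted p = 0.0589), and with the line as a random block neither was (adjusted p = 0.0561 and 0.101). With 1 WT array left out the WT change ran from -0.69, called without the LPS array of WT7, to -0.30 without that of WT13.

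Itgb1, the beta subunit shared by most of these receptors, fell slightly. Its brighter probe read 10.13, 10.26 and 10.10 in the WT lines and 9.75, 9.67 and 9.46 with LPS, and 9.98, 10.02 and 9.83 in KO4, KO10 and KO15 against 9.49, 9.41 and 9.68. Untreated and LPS arrays did not overlap in either genotype. The change was -0.53 in WT (SE 0.11, limma adjusted p = 0.00623) and -0.42 in KO (SE 0.11, adjusted p = 0.0299). The call in KO was lost without the array of KO4 or KO10 on either slide, with an adjusted p = 0.0977 and 0.104 untreated and 0.0724 and 0.122 with LPS. The second Itgb1 probe was lower in 6 of 6 lines and did not pass, at -0.30 in WT (SE 0.14, adjusted p = 0.157) and -0.23 in KO (SE 0.14, adjusted p = 0.337).

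Itgb5, a beta partner of the Itgav product, read 10.54 to 11.13 in WT arrays and 10.85 to 11.15 in KO arrays. Its change was -0.01 in WT (95% interval -0.30 to 0.29) and 0.18 in KO (95% interval -0.12 to 0.48), and it was lower with LPS in 2 of 6 lines. The single probe of Itgb3, the other partner gene, was detected on 1 array.

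**Figure D3:**
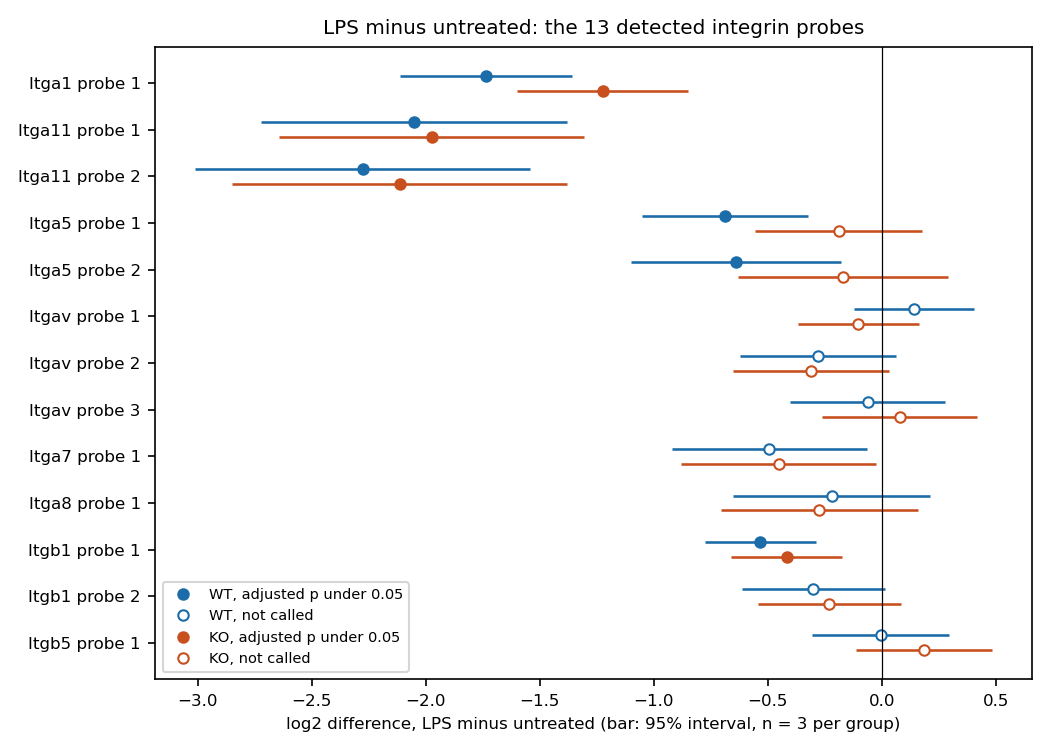
log2 difference between LPS and untreated arrays (x) for each of the 13 detected integrin probes (y) in WT lines (blue) and KO lines (orange), with bars for the 95% interval of the limma fit (n = 3 per group) and filled points where the adjusted p is under 0.05. Itga11 and Itga1 lie below -1.2 in both genotypes, Itgb1 probe 1 at -0.53 and -0.42, and both Itga5 probes are called in WT alone.

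The LPS changes were compared between genotypes as the KO change minus the WT change, which limma called for 0 of 13 integrin probes, with 0% of all probes called. An unadjusted p under 0.05 occurred for 0 of 13, beside 4% of all probes. A random block for the line called 1 probe of all, and 0 of the integrin probes. Itga1 had the largest difference, 0.51 (95% interval -0.02 to 1.04, adjusted p = 0.966), followed by Itga5 at 0.50 (-0.02 to 1.01) and 0.47 (-0.18 to 1.12). The fall of Itga5 in WT alone is thus not shown to differ from the change in KO. Without the LPS array of WT13 the Itga5 differences were 0.26 and 0.15, and without that of WT5 they were 0.67 and 0.72 (adjusted p = 0.822 for both). Itga11 had 0.08 (95% interval -0.87 to 1.02) and 0.16 (-0.88 to 1.20), intervals that also leave room for unequal changes.

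Between genotypes no integrin probe was called. Without LPS 0 of 13 differed (limma, 0.133% of all probes called) and 3 had an unadjusted p under 0.05, or 23.1% beside 8.82% of all probes. With LPS 0 of 13 differed (0.227% of all called), with 1 at an unadjusted p under 0.05 beside 9.77% of all probes, and on the means of each line's arrays 0 of 13 differed (0.0521% of all called), with 5 at an unadjusted p under 0.05, beside 9.95% of all probes. Some of these probes share a gene: the 3 untreated were Itga1 and both of Itga5. That with LPS was the brightest Itgav probe. The 5 on line means were both of Itga11, both of Itga5 and that of Itga8. On the brightest probe of each gene, 2 of 8 untreated, 1 of 8 with LPS and 3 of 8 on line means had an unadjusted p under 0.05. Over all 11060 genes 970, 1143 and 1121 did. In each of these comparisons 4 of 13 probes had genotypes that did not overlap, beside 17.5%, 12.7% and 15.4% of all probes. These comparisons rest on the same 6 lines, and those within a treatment share their arrays with the LPS comparisons above.

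Untreated KO lines read lower than WT lines for Itga5 and Itga1. For the brighter Itga5 probe the KO arrays lay at 11.50 to 11.64 and the WT arrays at 12.10 to 12.24, a difference of -0.57 (SE 0.17, 95% interval -0.93 to -0.20, limma adjusted p = 0.293). The second Itga5 probe also showed no overlap, at 9.99 to 10.07 against 10.66 to 10.68, with a difference of -0.63 (SE 0.21, adjusted p = 0.353). Itga1 lay at 7.11 to 7.28 in KO and 7.40 to 8.05 in WT, a difference of -0.55 (SE 0.17, adjusted p = 0.316). With LPS the Itga5 differences were -0.07 and -0.16 and that of Itga1 was -0.04, with the genotypes overlapping. Without the LPS array of WT13 the Itga5 differences with LPS were -0.31 (adjusted p = 0.382) and -0.48 (adjusted p = 0.269), again not called. Without that of WT5 they changed sign, to 0.11 (adjusted p = 0.842) and 0.088 (adjusted p = 0.896).

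Itga11 read the other way, at 0.59 and 0.57 higher in untreated KO lines (95% intervals -0.08 to 1.26 and -0.17 to 1.30) and 0.66 and 0.73 higher with LPS (-0.01 to 1.33 and -0.01 to 1.46). The limma adjusted p was 0.645 and 0.712 untreated and 0.516 for both probes with LPS. KO4 was the highest line on both slides for the brighter probe. Without its arrays that difference was 0.31 untreated and 0.29 with LPS. On line means the Itga11 differences were 0.63 (SE 0.26, adjusted p = 0.47) and 0.65 (SE 0.28, adjusted p = 0.5), and without KO4 they were 0.30 and 0.36.

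Itgav again differed between its probes. With LPS the brightest probe was at 9.64 to 9.66 in KO and 9.77 to 10.18 in WT, a difference of -0.29 (SE 0.12, limma adjusted p = 0.479), and the second probe had 0.26 (SE 0.16, adjusted p = 0.611). Itgb1 was at -0.22 and -0.28 untreated and -0.10 and -0.21 with LPS, Itgb5 at 0.06 and 0.25, and Itga7 at 0.16 and 0.20, none of them called. For Itga8, which no WT array with LPS detected, the KO mean with LPS was 4.90 and the lowest level detectable on the WT arrays averaged 4.89, so no fold is given.

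**Figure D4:**
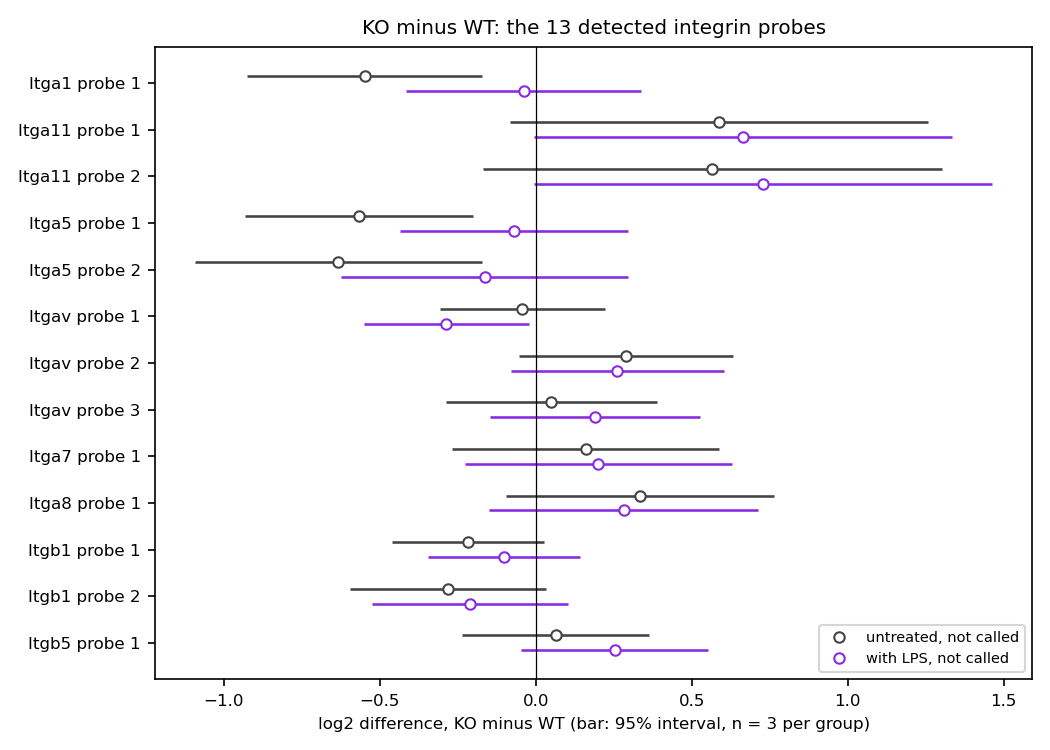
log2 difference between KO and WT lines (x) for each of the 13 detected integrin probes (y), untreated (grey) and with LPS (purple), with bars for the 95% interval of the limma fit (n = 3 per group). No point is filled, since no adjusted p is under 0.05. The untreated intervals of Itga1 and both Itga5 probes lie below 0, as does that of Itgav probe 1 with LPS (-0.55 to -0.02).

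Over the 12 arrays the gene whose brightest probe was most like that of Itga11 was Mgp, which encodes matrix Gla protein, an inhibitor of calcification (Pearson r = 0.987), and the next was Etfa (r = 0.976). Itga1 was most like Adgre5 (r = 0.989), which encodes an adhesion G protein-coupled receptor, and Nipa1 (r = 0.970). Itgb1 was most like Lonrf1 (r = 0.982) and Fermt2 (r = 0.977), the latter encoding kindlin-2, an adaptor that binds beta subunit tails. Within the 6 untreated and the 6 LPS arrays, r was 0.955 and 0.989 for Mgp, 0.927 and 0.872 for Adgre5 and 0.938 and 0.875 for Fermt2, but 0.779 and 0.687 for Nipa1. Over the 16 genes named here it ran from 0.643 (Lima1 with Itgav) to 0.980 in untreated arrays and from 0.687 to 0.989 in LPS arrays. Itga5 was most like Mindy2 (r = 0.953) and Chst12 (0.948), Itga7 like Ndufa11 (0.931) and Dnajc3 (0.918), and Itgav like Larp4b (0.901) and Lima1 (0.892). Itgb5 was most like Ddost (0.913) and Slc16a13 (0.900), and Itga8 like Prrg2 (0.929) and Wwox (0.871). These genes were picked as the highest of all genes, and the points share lines, slides and the LPS step, so the correlations are descriptions.

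Genes that work with these receptors were counted on the brightest detected probe of each, with calls from the same limma fit over all probes. The lists were chosen with earlier results of these data known, so their shares are descriptions. Over all 11060 genes the median change was -0.06 in WT and -0.03 in KO, with 11.4% falling and 10.2% rising in WT and 6.39% falling and 6.89% rising in KO, the shares against which the counts below are read. Of 38 adaptor and signalling genes of adhesion sites 30 were measured. In WT 11 of the 30 fell and 0 rose (36.7% against the 11.4% of all genes, median -0.21), and in KO 8 fell and 0 rose (26.7% against 6.39%, median -0.17). The called genes of smallest p were the same 4 in both genotypes: Tns1, the actin-linking adaptor tensin, at -0.97 and -0.83, Cav1, the caveolae coat protein gene, at -0.86 and -1.10, Tln2, a talin gene, at -0.83 and -0.88, and Actn4, an actin crosslinker gene, at -0.58 and -0.61. Between genotypes Fyn, a Src family kinase gene, was lower in KO lines with LPS (-0.50, SE 0.09, adjusted p = 0.0459), on a probe detected on 1 of the 3 KO arrays with LPS, and no other gene of these lists was called.

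Of 30 matrix ligand genes 21 were measured, 7 falling in WT (33.3% against the 11.4% of all genes, median -0.33) and 4 in KO (19% against 6.39%, median -0.24), with 0 rising. Lamb2, a laminin chain gene (-0.59 and -0.40), Fn1, fibronectin (-0.75 and -0.47), and Col4a2, a basement membrane collagen gene (-0.44 and -0.28), were called in both genotypes. Thbs2, thrombospondin-2, was also called in both, at -0.45 in KO. Col1a1, a fibrillar collagen gene, was called in WT alone, at -0.77. With 1 array left out 0 to 2 genes of this list were called in KO, where 1293 to 2390 of all 21124 probes were, against 2634 in the main fit. With the line as a fixed replicate block 2 were called in KO and 11 in WT, beside 3094 and 5007 of all probes.

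Of 17 other integrin subunit genes 8 were measured. In WT 1 rose and 2 fell (12.5% and 25%, against 10.2% and 11.4% of all genes). In KO 0 rose and 3 fell (0% and 37.5%, against 6.89% and 6.39%). In both genotypes Itgb4, a laminin receptor subunit gene of epithelium (-0.75 and -0.73), and Itga9 (-0.51 and -0.53) fell, and Itga3, a laminin-binding subunit gene, fell in KO at -0.59 and was at -0.37 in WT (adjusted p = 0.0675). Itga2, another collagen-binding subunit gene, rose in WT by 0.93 (SE 0.20, adjusted p = 0.0076), on a probe detected on 1 of the 3 untreated WT arrays, and was at 0.30 in KO (adjusted p = 0.38). The difference between these Itga2 changes was -0.63 (95% interval -1.26 to -0.01, adjusted p = 0.966). Of 15 tetraspanin and surface partner genes 14 were measured, with 4 rising and 3 falling in WT (28.6% and 21.4%, against 10.2% and 11.4% of all genes) and 3 rising and 1 falling in KO (21.4% and 7.14%, against 6.89% and 6.39%). Cd82, a tetraspanin gene (0.99 and 0.81), Cd47, which encodes an integrin-associated protein (0.86 and 0.92), and Sdc4, a syndecan gene (0.61 and 0.47), rose in both, and Sdc2, another syndecan gene, fell in both (-0.48 and -0.48). Sdc1 (0.42), Cd151 (-0.44) and Cd81 (-0.28) were called in WT alone, and the difference between the genotypes' changes was called for 0 of these genes. With 1 array left out, 1 to 4 of the other integrin genes, 8 to 12 of the adaptor genes and 4 to 7 of the surface partner genes were called in WT, and 0 to 3, 4 to 8 and 2 to 5 in KO. In these fits 2661 to 5133 of all 21124 probes were called in WT and 1293 to 2390 in KO, against 4375 and 2634 in the main fit. Itgb4, Itga9, Itga3, Sdc4 and Sdc2 each lost the KO call in at least 1 such fit, and Itgb4 and Itga9 also lost the WT call, while Cd82, Cd47, Cav1, Tns1, Tln2 and Actn4 were called in both genotypes in each.

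**Figure D5:**
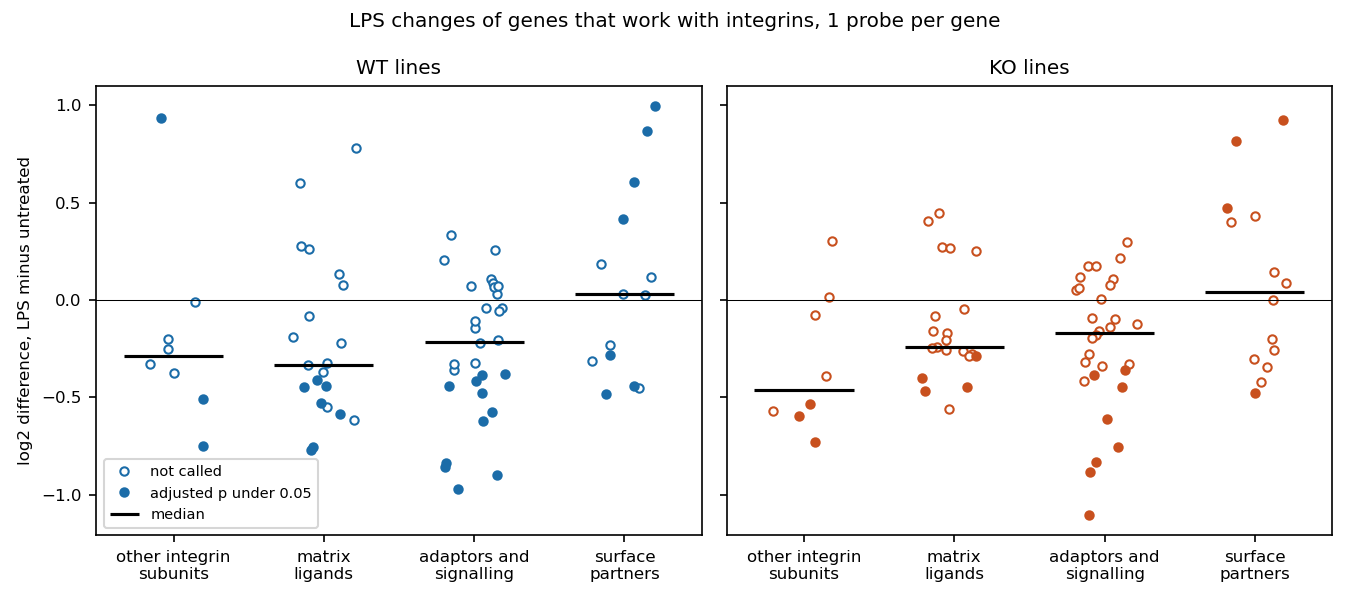
log2 difference between LPS and untreated arrays (y) of each measured gene in the 4 lists (x) for WT lines (left) and KO lines (right), filled where the adjusted p is under 0.05, with black bars for list medians. Adaptors and matrix ligands have filled points below 0 alone, and surface partners have filled points on both sides of 0.

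Cell type markers moved beside these results. The summed level of the 10 myofibroblast and smooth muscle markers was 16.47 to 16.52 log2 units in untreated WT and 16.10 to 16.33 with LPS, and 16.42 to 16.44 in untreated KO and 16.06 to 16.15 with LPS, with 7 of 10 markers called in WT and 5 in KO, beside 20.7% and 12.5% of all probes. The sums of the 10 fibroblast markers were 15.22 to 15.37 and 14.94 to 15.19 in WT and 15.26 to 15.36 and 15.20 to 15.32 in KO. Those of the 5 detected leukocyte markers were 11.04 to 11.69 and 10.74 to 11.16 in WT and 10.00 to 11.85 and 9.60 to 11.31 in KO. The sum of the 2 detected glial and neuronal markers, Uchl1 and Sox10, was higher with LPS without overlap, at 8.88 to 9.29 and 9.32 to 9.57 in WT and 8.60 to 8.76 and 9.09 to 9.46 in KO. Of these 2 markers 1 was called with LPS in each genotype, beside 20.7% and 12.5% of all probes. The 5 detected epithelial markers summed to 8.59 to 9.31 and 8.17 to 8.81 in WT, which overlap, and to 8.49 to 8.81 and 7.74 to 8.24 in KO, which do not. The sums of the 5 detected endothelial markers lay at 8.77 to 9.55 and 8.32 to 9.37 in WT and 8.60 to 9.07 and 8.31 to 8.76 in KO. Of the mesothelial and Cajal cell list the 2 detected markers were Upk3b and Msln, while Kit, Ano1 and Lrrn4 were not detected. The sums of Upk3b and Msln were 6.30 to 8.14 and 6.17 to 7.55 in WT, which overlap. In KO they were 7.43 to 7.92 and 7.01 to 7.21, which do not. Calls with LPS in WT and KO numbered 3 and 1 of the fibroblast, 2 and 2 of the leukocyte and 1 and 1 of the endothelial markers. No epithelial, mesothelial or Cajal cell marker was called with LPS, beside the same shares of all probes. Between untreated genotypes 1 endothelial marker was called, beside 0.133% of all probes. The part of these marker shifts in the integrin changes, that of Itgb4 included, was not tested.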

How the data were processed

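Gene expression was measured on 12 Illumina bead arrays. The deposited intensity values are unnormalised mean bead signals, per the file headers. Each signal comes with a detection p-value, also deposited by the authors, per the file headers. The authors' processed intensity values, in another deposited table, look from the values to be quantile normalised without background subtraction and served as an alternative. Per the submitters' processing notes BeadStudio was used, and its settings are not stated in the labels.

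The neqc function of limma 3.58.1 (R 4.3.3) normalised the signals (offset 16, quantile normalisation, log2). A probe was kept where its detection p was under 0.05 on at least 3 arrays. One limma fit (lmFit, eBayes, two-sided) of 4 group means over the 12 arrays gave 5 comparisons, and a fit of the 6 line means gave the sixth, with Benjamini-Hochberg adjustment over all 21124 probes. With 3 arrays against 3, the smallest p an exact permutation test allows is 0.1. Probe symbols came from the platform annotation, where 34885 probes had 1 symbol, 18 several and 10378 none. The number of arrays limits the precision.

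The arrays of a line are paired by the cell line in their labels, and both arrays of a line deviated together from their groups (r = 0.086 to 0.453 across probes), each line best with itself. The line as a fixed block (LPS comparisons) or a random block, other scalings and filters, only the arrays compared, and each array left out in turn were alternatives. Every member is named, and of each other gene list up to 4 called genes of smallest p per comparison, or all where 5 or fewer were called. The nearest patterns are the 2 genes of highest Pearson r. The integrin genes, the 4 other lists and the tests were chosen with earlier results of these data known. The fit was tested on simulated data with independent arrays and changes added to the untreated KO group alone. That test did not cover the pairing of lines, the slides or the LPS comparisons. Probes for the microRNA cluster were not analysed here.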

Additional observations from a re-analysis of the deposited data

Results flagged for a closer look

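The Itgb3 probe, which was outside the tests because fewer than 3 arrays detected it, read 5.11 log2 units on the LPS array of KO10, its highest reading and above all 6 untreated arrays (4.41 to 4.84). It was detected on that 1 array, among 78 LPS readings of the 13 undetected integrin probes, and the other LPS arrays read 4.42 to 4.78. No group held enough arrays for a test of single outlying arrays.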

How the results depend on the processing

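The number of integrin probes called stayed at 0 between genotypes, on line means and for the difference of LPS changes under all alternatives, and ranged from 4 to 7 for LPS in WT and from 3 to 4 in KO. Both Itga11 probes and Itga1 were called lower with LPS in both genotypes under all alternatives. The Itga5 second probe in WT was not called without a filter on dim probes (adjusted p = 0.11), with only the arrays compared (0.113) or in 5 of the 6 fits with 1 array left out (-0.70 to -0.33 in these, and -0.89 to -0.33 over all 6), and Itga7 in WT and the second Itgav probe in WT (-0.49 without untreated WT5) gained calls. Uncalled values changed sign for the Itga11 difference of LPS changes, at -0.016 and -0.12 with the authors' processed values and -0.011 for the second probe with an offset of 50, and with arrays left out at -0.30 to 0.35 and -0.19 to 0.46. With arrays left out, the ranges that cross 0 were, for KO minus WT untreated, -0.14 to 0.023 and -0.052 to 0.13 for the brightest and dimmest Itgav probes and -0.016 to 0.11 for Itgb5. For KO minus WT with LPS they were -0.18 to 0.10 for Itga1 and -0.31 to 0.11 and -0.48 to 0.088 for Itga5. For LPS they were -0.16 to 0.12 for the dimmest Itgav probe and -0.14 to 0.15 for Itgb5 in WT, and -0.0055 to 0.18 for the dimmest Itgav probe in KO. Over all probes, calls between genotypes went from 28 to 1 untreated and from 48 to 4 with LPS when only the arrays compared were fitted, to 7 and 17 without a filter, and from 48 to 28 under 75th percentile scaling, with 4 to 35 and 7 to 26 when 1 array was left out. On line means they went from 11 to 4 with the authors' processed values, 3 without a filter, 31 with probes detected on all arrays, 41 with an offset of 50 and 3 to 64 with 1 line left out. LPS calls went from 4375 to 2526 in WT and from 2634 to 1622 in KO with 1 probe per gene, where fewer probes are tested, and to 2661 to 5133 and 1293 to 2390 with 1 array left out. The line as a block changed no other integrin call than that of Itga7. The cause of these shifts was not tested. Probes near background, such as Itga8, have compressed differences.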
